A study of Homo sapiens with 6 samples.

Results

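The 2′-5′-oligoadenylate synthetase (OAS) family was followed in MHCC97H cells, a human hepatocellular carcinoma line with high metastatic capacity, after knockdown of HNRNPC. Its members were the 4 genes whose symbol in the deposited count table is OAS1, OAS2, OAS3 or OASL, out of 15598 genes listed. The series held 3 RNA sequencing libraries from cells with a control short hairpin RNA (shcontrol) and 3 from cells with a hairpin against HNRNPC (shHNRNPC). HNRNPC encodes an RNA-binding protein of the nucleus with a preference for runs of uridine in new transcripts. No further treatment, interferon or infection is named in the labels, and the labels describe the knockdown only as a specific hairpin in 1 cell line. Hence an effect of the hairpin itself and one of HNRNPC loss cannot be told apart. Nothing says that the libraries came from separate cultures, so p-values measure the spread between these libraries, which may be technical.

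OAS1, OAS2 and OAS3 are interferon-induced enzymes that bind double-stranded RNA and then join ATP into chains of 2′-5′-linked adenylate, called 2-5A. The chains act as messengers of an antiviral response that ends in the decay of RNA of the virus and of the cell. OAS1 carries 1 copy of the synthetase unit, OAS2 carries 2 and OAS3 carries 3. OASL has the same fold without the synthetase activity and ends in ubiquitin-like domains. It is known for supporting the RNA sensor RIG-I and restraining the DNA sensor cGAS.

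In the deposited table OAS1 lies on chromosome 12, 112906850 to 112918462, OAS3 at 112938444 to 112942303 and OAS2 at 112978590 to 113011216, all on the plus strand. OASL lies farther along the chromosome, 121020292 to 121039242, on the minus strand. The build of the table is not given in the sources used here, and 96.1% of its 15211 positions overlap the same-named gene of GENCODE 29 on GRCh38. In GENCODE 29 the OAS1 gene runs from 112906777 to 112933222 and the OAS3 gene from 112938352 to 112973249. The deposited interval of each of these genes covers only its first part. A long antisense gene on the minus strand, AC004551.1 (112907628 to 113017751), overlaps OAS1, OAS3 and OAS2 but not OASL. It is not a row of the deposited table. Whether counting used strand is not given in the sources used here, so reads from that gene cannot be told apart from those of the 3 synthetases.

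Promoter windows from RefSeq (GRCh38.p14, 250 bases before to 50 after a start) were found for 2 of the 4 members, OAS1 and OAS3. OAS2 and OASL had no entry. The windows are shown because interferon-stimulated genes are commonly bound by STAT and IRF factors at an interferon-stimulated response element (ISRE), and both members rose together. Each line below gives 30 bases of the plus strand, 5′ to 3′. Capitals mark the longest run of letters that both windows share in the first and second lines, and a match to the ISRE pattern GAAANNGAAA in the third.

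OAS1, chr12:112906937-112906966: cttctgaggAAACGAAACCAacagcagtcc
OAS3, chr12:112938455-112938484: cgggcgggaAAACGAAACCAgaaatccgaa
OAS3, chr12:112938321-112938350: agaaagaaacGAAACTGAAAgcagggaatt

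The shared run AAACGAAACCA began 16 bases before the OAS1 start and 10 bases before the OAS3 start. It was chosen by comparing these windows, and 5 of the 35116 RefSeq windows held it on either strand, these windows included. The genes with it were OAS1, OAS3, LINC02754 and PLSCR1, the last being another interferon-stimulated gene. Among 29 interferon-stimulated effector genes with a window, 1 held the run. The pattern AANNGAAA, the core bound by IRF factors, matched at 2 places in the OAS1 window and at 3 in the OAS3 window, and overlaps the ISRE pattern. GAAANNGAAA matched at 2 places in the OAS3 window, starting 143 and 12 bases before the start, and its letters were not in the OAS1 window. The printed OAS1 line does hold GAAACGAAA, whose GAAA units have a shorter spacer that the pattern does not allow. Of 9415 tested genes with a window, 21.2% held AANNGAAA and 3.86% held GAAANNGAAA, on either strand. Of 29 interferon-stimulated effector genes with a window, 26 held the first pattern and 21 the second. A match describes the letters only, and no binding was measured.

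Library totals ranged from 15563077 to 18328475 counts. Levels are CPM, a gene's counts scaled to a common library size, and fold changes are shHNRNPC over shcontrol. HNRNPC itself fell from 853 ± 4.76 to 62.3 ± 3.80 CPM (SD, n = 3 per group), which left 7.30% of the control level. Hepatocyte markers were at or near 0, since the 5 of 8 listed that are in the table summed to 0.399 to 1.02 CPM in a library, and ALB had 1 count over all 6. The epithelial list, nearly all of it KRT8 and KRT18, summed to 1375 to 1394 CPM in shcontrol and 1570 to 1590 CPM in shHNRNPC, with EPCAM at no more than 7 counts in a library. This list moves with the groups, and its part in the results was not tested. Of leukocyte markers, blood cells being another rich source of OAS transcripts, CD3E, CD14 and LYZ were at or near 0, and the list summed to 13.4 to 16.5 CPM in shcontrol and 11.7 to 13.9 CPM in shHNRNPC, nearly all of it from ITGAX. Fibroblast markers summed to 18.6 to 20.9 CPM and 19.3 to 20.9 CPM, and endothelial markers to 0.588 to 1.40 CPM and 0.456 to 0.669 CPM, in the same order of groups.

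All 4 members were higher in every shHNRNPC library than in any shcontrol library, as were 30.9% of all tested genes. OASL, which lacks synthetase activity, rose 3.94-fold, OAS2 2.95-fold, OAS1 2.14-fold and OAS3 1.86-fold. Each passed an adjusted p of 0.05 by edgeR's quasi-likelihood test over the 11831 genes tested. For comparison, 29.8% of all tested genes were called higher and 61.1% were called in either direction, so a call or a lack of overlap alone is common in this series. Only 4.9% of tested genes were called with a rise of at least 1.5-fold, as each member was. A rise per cell and a larger share of cells with high levels cannot be told apart in these bulk libraries.

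OAS1, the smallest synthetase, stood at 219, 229.5 and 221 CPM in shcontrol (libraries NC_3, NC_3_2 and NC_3_3, the order used throughout). In shHNRNPC (SI_3, SI_3_2 and SI_3_3) it stood at 477, 481 and 476 CPM. The groups did not overlap, and the lowest shHNRNPC library was 2.07 times the highest shcontrol library. The log2 fold change was 1.10 (SE 0.025, adjusted p = 1.02e-35 by edgeR). The counts behind these levels were 3627 to 4104 in shcontrol and 7837 to 8433 in shHNRNPC.

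OAS2 gained more. Its level was 249, 259 and 270 CPM in the shcontrol libraries and 761, 776 and 757 CPM in the shHNRNPC libraries. The lowest shHNRNPC library was 2.81 times the highest shcontrol library, and the spread within each group was small beside that gap (coefficients of variation of 3.99% and 1.32%). The log2 fold change was 1.56 (SE 0.025, adjusted p = 5.03e-42 by edgeR). This placed OAS2 at rank 80 of the 11831 tested genes by size of rise.

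OAS3, the long synthetase known to make most of the active 2-5A in infected cells, was the most counted member in both groups. It stood at 757, 736 and 759 CPM in shcontrol and at 1382, 1385 and 1421 CPM in shHNRNPC. The groups did not overlap. Its log2 fold change of 0.90 (SE 0.020, adjusted p = 4.44e-36 by edgeR) was the smallest of the 4, yet its gain in level, 645 CPM, was the largest. By level it moved from rank 151 to rank 48 among tested genes.

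OASL showed the reverse. It was the least counted member in shcontrol, at 72.6, 75.2 and 74.3 CPM, and reached 289, 292 and 293 CPM in shHNRNPC. The lowest shHNRNPC library was 3.84 times the highest shcontrol library. Its log2 fold change was 1.98 (SE 0.031, adjusted p = 6.23e-42 by edgeR), rank 30 among tested genes, while its gain of 217 CPM was the smallest of the 4. In the authors' deposited table the log2 fold changes are 1.10 for OAS1, 1.56 for OAS2, 0.90 for OAS3 and 1.98 for OASL.

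**Figure D1:**
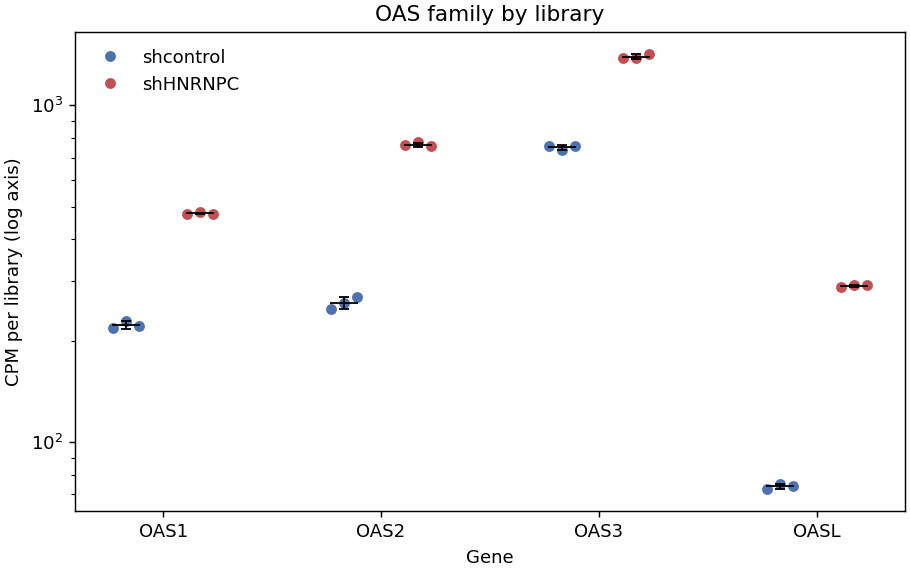
CPM of each OAS gene in every library (log axis), with points for the 3 libraries of a group and black bars for the mean and SD. For each of the 4 OAS genes the shHNRNPC points lie above all shcontrol points, from 72.6 to 75.2 CPM against 289 to 293 CPM for OASL.

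Together the 4 members summed to 1297, 1299 and 1323 CPM in shcontrol and to 2908, 2934 and 2947 CPM in shHNRNPC, a 2.24-fold higher family total. The total was made up differently in the 2 groups. OAS3 supplied 57.4% ± 0.852 of family counts in shcontrol and 47.6% ± 0.525 in shHNRNPC (SD, n = 3). OAS2 supplied 19.8% ± 0.597 and then 26.1% ± 0.387, and OASL 5.67% ± 0.105 and then 9.94% ± 0.00667. The OAS1 share moved little, from 17.1% ± 0.518 to 16.3% ± 0.144, although here too the groups did not overlap.

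Whether the members changed by unequal amounts was tested on the log2 ratio of their counts within each library, which needs no scaling between libraries. For OASL over OAS3 the ratio was -3.38, -3.29 and -3.35 in shcontrol and -2.26, -2.25 and -2.28 in shHNRNPC, a difference of 1.08 (SE 0.028) that corresponds to a 2.12-fold larger rise of OASL. For OASL over OAS1 the difference was 0.88 (SE 0.013), for OAS2 over OAS3 0.67 (SE 0.041), for OAS2 over OAS1 0.46 (SE 0.037), and for OASL over OAS2 0.41 (SE 0.029). The smallest difference was that of OAS1 over OAS3, 0.20 (SE 0.038), with -1.79, -1.68 and -1.78 in shcontrol and -1.54, -1.53 and -1.58 in shHNRNPC. Each pair was written with the gene of the larger fold change first, so the direction of every difference was set by that order. The pairs also share genes and are not independent. The groups did not overlap in any of the 6 pairs. An exact two-sided permutation test gave p = 0.1 for each pair, also after Benjamini-Hochberg adjustment over the 6, which is the smallest p that 3 against 3 libraries can give, so this test cannot pass 0.05.

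**Figure D2:**
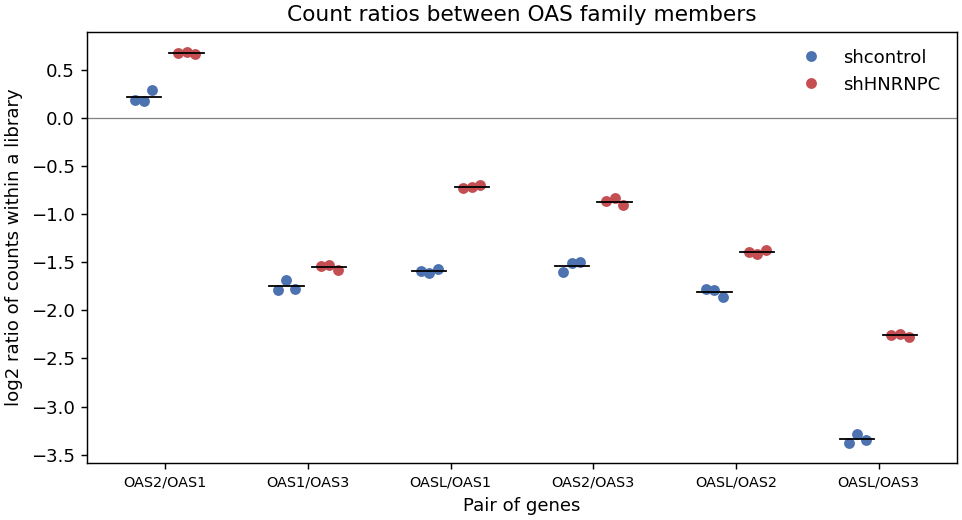
Log2 ratio of counts between each pair of OAS genes within a library, with points for libraries and black lines for group means. In all 6 pairs the shHNRNPC points lie above the shcontrol points, by 1.08 for OASL/OAS3 and by 0.20 for OAS1/OAS3. The gene with the larger fold change is written first, which sets this direction.

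Levels of different genes were compared per kilobase of the transcript that the deposited table names for each gene. On that scale OAS1 was highest in shcontrol at 123 ± 3.10 CPM per kb, followed by OAS3 at 112 ± 1.88, OAS2 at 71.7 ± 2.86 and OASL at 49.6 ± 0.872 (SD, n = 3). No neighbours in that order overlapped. In shHNRNPC the levels were 263 ± 1.53 for OAS1, 212 ± 2.80 for OAS2, 208 ± 3.27 for OAS3 and 195 ± 1.41 for OASL, and the libraries of OAS2 and OAS3 overlapped. The highest member was 2.48 times the lowest in shcontrol and 1.35 times in shHNRNPC. The order rests on the transcript length used, since with the longest coding transcript of GENCODE 29 or with all exons of the gene OAS3 was highest in both groups. With those lengths, which were added after the data were seen, the highest over the lowest was 4.93 or 4.32 in shcontrol and 2.33 or 2.04 in shHNRNPC. The members thus lay closer together in shHNRNPC with each of the 3 lengths. For each length the same genes were highest and lowest in both groups, so this narrowing restates their unequal fold changes.

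**Figure D3:**
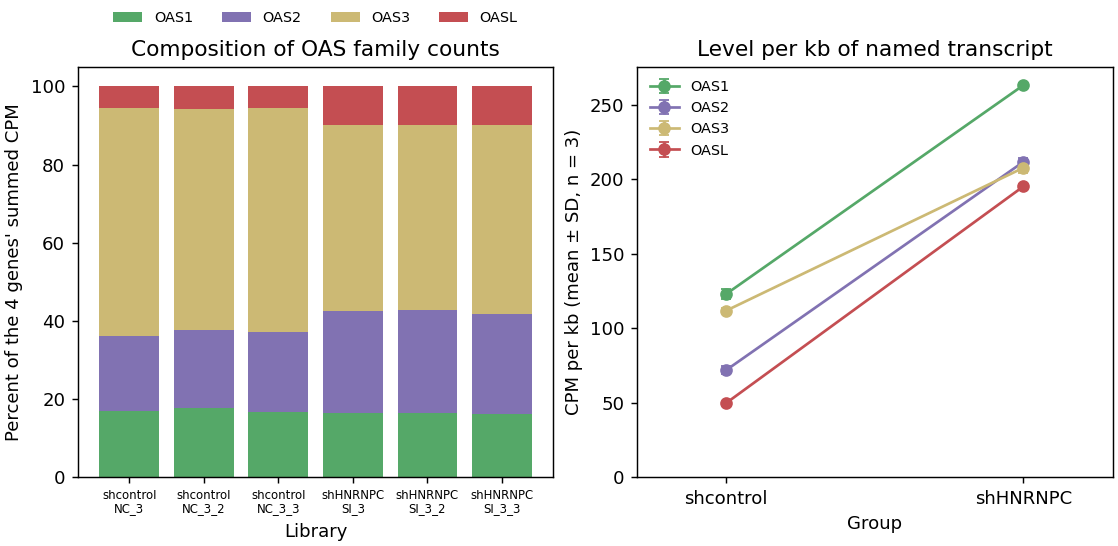
Left, the percent of the family's summed CPM from each OAS gene in every library. Right, the mean and SD (n = 3) of CPM per kb of the named transcript in each group. OAS3 takes 57.4% of the bar in shcontrol and 47.6% in shHNRNPC on average, and on the right the 4 genes span 49.6 to 123 CPM per kb in shcontrol and 195 to 263 in shHNRNPC.

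Beside the synthetases, 4 listed genes encode proteins described as restraining the 2-5A pathway, and of these 3 were lower, where 31.3% of all tested genes were called lower. ABCE1, a ribosome recycling factor also described as an inhibitor in this pathway, fell 1.54-fold, from 66.2 ± 1.52 to 42.9 ± 1.97 CPM (adjusted p = 5.25e-15 by edgeR). PDE12, a phosphodiesterase that degrades 2-5A, fell 1.51-fold, from 72.8 ± 3.94 to 48.3 ± 2.56 CPM (adjusted p = 2.80e-14 by edgeR). An edgeR fit with offsets for the GC content and length of transcripts (the GC-length fit) was also run. Its offsets were taken from the fold changes of this same comparison, so it also removes any knockdown response that follows GC content or length. In that fit the log2 fold change of ABCE1 was -0.33 in place of -0.63. That of PDE12 was -0.28 in place of -0.59, and both kept their calls.

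AKAP7, whose product has a phosphodiesterase domain related to viral enzymes that cut 2-5A, had 3.91 ± 0.483 CPM in shcontrol and 2.87 ± 0.660 CPM in shHNRNPC. The groups overlapped (log2 fold change -0.44, adjusted p = 0.0412 by edgeR). Its call was lost by DESeq2 (adjusted p = 0.118), in the GC-length fit (adjusted p = 0.406), and in edgeR without NC_3 (adjusted p = 0.0868), NC_3_3 (0.138), SI_3 (0.210) or SI_3_2 (0.0936). ENPP1, a membrane phosphodiesterase that can also cleave 2-5A, had 196, 214 and 258 counts in shcontrol and 221, 202 and 220 in shHNRNPC and was not called (adjusted p = 0.613 by edgeR).

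Among 15 tested sensors and effectors of double-stranded RNA, 9 were higher, 2 were lower and 4 were not called. Over all tested genes 29.8% were called higher and 31.3% lower. Their median log2 fold change was 0.20, beside -0.0041 for all tested genes. DHX58, the helicase LGP2, rose 3.80-fold to 52.1 ± 2.80 CPM, and ZNFX1, a helicase that senses RNA at mitochondria, rose 2.17-fold to 425 ± 6.03 CPM. IFIH1, the sensor MDA5, rose 1.37-fold, and ADAR, which edits double-stranded RNA, also rose 1.37-fold. NLRP1, an inflammasome sensor, rose 1.25-fold. EIF2AK2, named here after its values were seen, encodes PKR, the kinase that stops translation on binding the same kind of RNA as the synthetases. It stood at 157 ± 3.70 CPM in shcontrol and 150 ± 4.89 CPM in shHNRNPC and was not called (log2 fold change -0.059, adjusted p = 0.112 by edgeR). With library size alone as scaling it was called lower (-0.099), and in the GC-length fit it was called higher (0.36), so its direction is not settled by these counts. With library size alone, 4 genes of the list were called lower, with DHX9 and EIF2AK2 added. Over the 15 alternatives given at the end, 7 to 10 genes of the list were called higher.

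Of 12 tested genes of interferon signalling, 8 were higher and 1 was lower, with a median log2 fold change of 0.47. The shares over all tested genes were 29.8% higher and 31.3% lower. USP18, which limits signalling from the type I interferon receptor, rose 2.56-fold to 198 ± 7.55 CPM. SOCS1, another inhibitor, rose 2.09-fold (1.70-fold in the GC-length fit). The transcription factors IRF1, STAT2 and IRF3 rose 1.83-fold, 1.42-fold and 1.38-fold. IFNAR1, a chain of the type I interferon receptor, was the gene that fell, by 0.43 on the log2 scale. In the GC-length fit its log2 fold change was -0.22 and that of IRF3 0.22 in place of 0.46, and both kept their calls. JAK1, a receptor kinase, had a log2 fold change of -0.062 (adjusted p = 0.0715 by edgeR) and was called lower without NC_3_2 (adjusted p = 0.0413), without SI_3 (adjusted p = 0.0372) and with library size alone (adjusted p = 0.00295). TYK2, another receptor kinase, was called lower in the GC-length fit (-0.13). IRF9 was not analysed here.

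Interferon transcripts were at the edge of detection. IFNB1, the gene of interferon beta, had 2, 2 and 3 counts in shcontrol and 9, 10 and 9 counts in shHNRNPC, and was below the filter on low counts. IFNL1, an interferon lambda gene, had 1, 11 and 10 counts in shcontrol and 27, 31 and 17 counts in shHNRNPC (adjusted p = 2.96e-04 by edgeR). It was left out when a mean of at least 1 CPM was required. Without a filter, IFNB1 was called as well (adjusted p = 0.0132).

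In the list of genes around cGAS, a nucleotidyltransferase with the same fold as the OAS enzymes, 1 of 7 was higher and 4 were lower. Their median log2 fold change was -0.39. Of all tested genes 29.8% were called higher and 31.3% lower. In the GC-length fit 3 were lower and the median was -0.15. CGAS itself stood at 60.1 ± 1.64 and 56.3 ± 1.76 CPM and was not called (adjusted p = 0.0881 by edgeR), and it was called lower with library size alone (adjusted p = 0.0145). STING1 (TMEM173 in the table), the receptor of the cGAS product, rose 1.41-fold. The kinases TBK1 and IKBKE both fell 1.31-fold, and TBK1 was not called in the GC-length fit (adjusted p = 0.237). The noncanonical poly(A) polymerases TENT4A and TENT4B fell 1.31-fold and 1.49-fold. In the same fit the log2 fold change of STING1 was 0.28 in place of 0.50 and that of TENT4B -0.35 in place of -0.58, and both kept their calls.

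Of 33 tested interferon-stimulated effectors, 31 were higher and 1 was lower, beside 29.8% and 31.3% of all tested genes. Over the 15 alternatives given at the end, 29 to 32 of these effectors were called higher. Their median log2 fold change was 0.79. A rise of at least 1.5-fold was called for 22, beside 4.9% of all tested genes. The members' log2 fold changes, from 0.90 to 1.98, lay above this median, and the effectors reached from -0.66 for DDX60 to 2.65 for TRIM22, which were named after their values were seen. In the GC-length fit DDX60 was at -0.31 and still called lower. ISG15, a ubiquitin-like modifier, rose 2.43-fold, IFI6 2.66-fold, RSAD2 4.46-fold and MX1 1.93-fold. The membrane proteins IFITM1 and IFITM3, which block viral entry, rose 3.31-fold and 1.92-fold. In the GC-length fit ISG15 rose 1.975-fold, IFI6 2.19-fold, RSAD2 4.92-fold and MX1 1.76-fold. There IFITM1 rose 2.76-fold and IFITM3 1.58-fold, and the median log2 fold change of the list was 0.82.

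**Figure D4:**
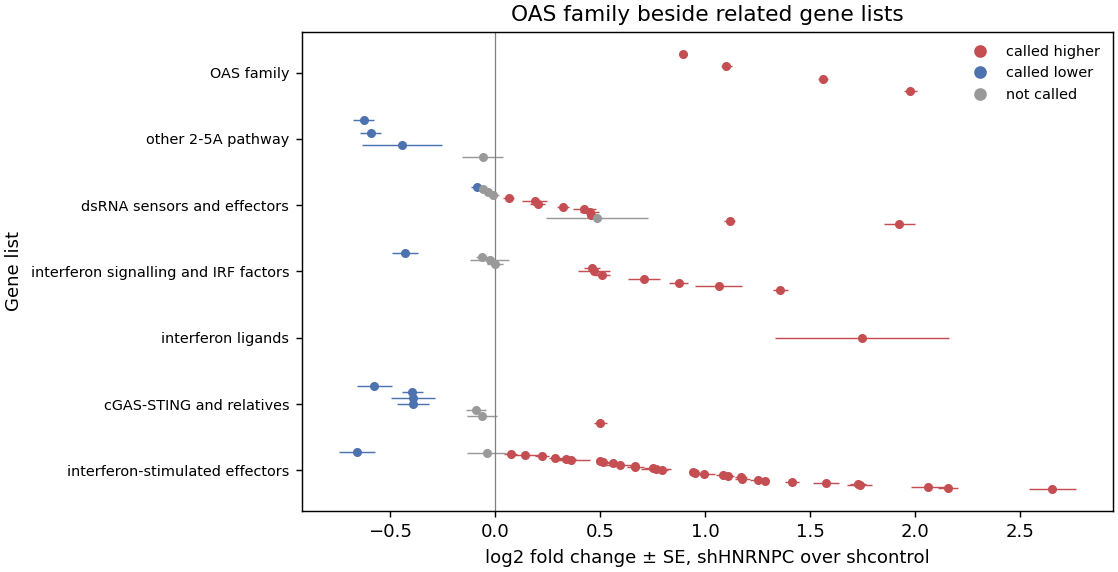
Log2 fold change with SE of the 4 OAS genes and of the tested genes of each list that are reported, in red where called higher, blue where called lower and grey where not called. The OAS genes lie between 0.90 and 1.98 and the genes around cGAS centre on -0.39, or on -0.15 in the GC-length fit, which is not drawn.

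The genes whose profile over the 6 libraries was nearest to that of a member were named by Euclidean distance of centred log2 CPM among 9695 genes with a mean of at least 5 CPM. Nearest to OAS1 were ZNFX1, HAS3, a hyaluronan synthase, and IFI35, an interferon-induced protein. Nearest to OAS2 were GBP4, a guanylate-binding protein, IFITM1 and CMPK2, a nucleotide kinase next to RSAD2. Nearest to OAS3 were IFITM3, PLEKHA4 and ZC3HAV1, the antiviral zinc finger protein ZAP. Nearest to OASL were CEACAM1, a cell adhesion receptor, ISG20, an RNA exonuclease, and RTP4. The distances ranged from 0.0488 for ZNFX1 with OAS1 to 0.236 for CMPK2 with OAS2. With only 2 groups of 3 libraries this measure mainly reflects a similar fold change.

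Genes beside the family on chromosome 12 were compared by their position in the deposited table, within 500 kb of a member. Of 9 tested genes around OAS1, OAS3 and OAS2, 3 were higher, 2 were lower and 4 were not called. Among all tested genes 29.8% were called higher and 31.3% lower. The nearest tested gene on the side of OAS2 was DDX54, at 207 ± 5.19 and 207 ± 6.29 CPM (adjusted p = 0.991 by edgeR). PTPN11, which encodes the phosphatase SHP2, was the nearest tested gene on the side of OAS1. It lay at -487.9 kb from OAS1, close to the 500 kb limit, and fell 1.82-fold, from 108 ± 4.08 to 59.4 ± 4.70 CPM. SDS and SDSL, the serine dehydratase genes, rose 2.29-fold and 1.71-fold at 413.9 and 443.8 kb from OAS2 (1.43-fold for SDSL in the GC-length fit), and were named after their values were seen.

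Around OASL, 6 of 12 tested genes were higher and 4 were lower, by at most 1.25-fold. The nearest reported at higher coordinates was P2RX4, an ATP-gated channel, which rose 1.25-fold. Of all 21 tested genes around the family, 9 were called higher and 6 lower in the reported fit. Of all tested genes 29.8% were called higher and 31.3% lower. In the GC-length fit 2 were called higher, SDS and SDSL, beside 2649 of all 11813 genes in that fit. In the same fit 8 were called lower, beside 3986 of all genes. There P2RX4 lost its call (log2 fold change 0.10), and DDX54 (-0.13) and RITA1 (-0.22, named after its values were seen) were called lower. The 4 members kept log2 fold changes of 0.99 for OAS1, 1.58 for OAS2, 0.85 for OAS3 and 1.85 for OASL in that fit.

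**Figure D5:**
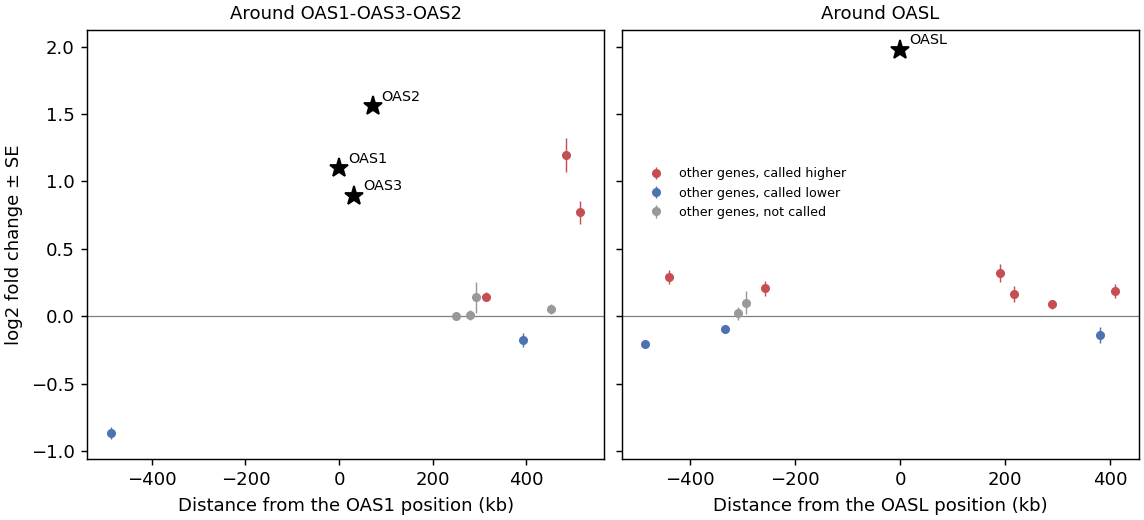
Log2 fold change with SE of tested genes reported within 500 kb of a member, by distance in the deposited table from OAS1 (left) or OASL (right), measured between the lower coordinates of the genes. The members (stars) lie at 0.90 to 1.98, DDX54 lies on the zero line, and the genes around OASL lie within 1.25-fold of no change.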

How the data were processed

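Total RNA of MHCC97H cells was sequenced in 3 shcontrol and 3 shHNRNPC libraries. Per the submitters' processing notes, the tools were STAR, DESeq2 and HTSeq 0.6.0. For annotation and strand setting these sources give nothing. The deposited table gives whole counts of reads per gene without normalisation, and the authors' log2 fold change of their comparison. NC columns were taken as shcontrol and SI columns as shHNRNPC, and 24 other per-library columns were not used. Totals were 15563077 to 18328475 counts.

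Counts were analysed in R 4.3.3 with edgeR 4.0.16 (filterByExpr, TMM, glmQLFit, glmQLFTest) over 11831 genes, p-values adjusted by Benjamini-Hochberg, and calls at 0.05. DESeq2 1.42.0 was an alternative. Ratios within libraries used a pseudocount of 0.5 and an exact permutation test in scipy 1.17.1. The GC-length fit used offsets from a smooth fit in mgcv 1.9.3 on GENCODE 29 transcripts. That smooth fit was made to the log2 fold changes of this same comparison, against GC content and length. It cannot tell a technical trend from a knockdown response that follows GC content or length, and removes both. The members and lists were chosen with earlier results of these data known. Named genes were the members, HNRNPC, the 2-5A pathway genes, up to 6 genes per list with the smallest adjusted p, 3 genes nearest to each member in profile and the nearest neighbours. Some genes under this rule are not reported here and are left out of the figures. The fit was tested on simulated counts with 200 of 11831 genes changed, of which it recovered 88.0% at 1.5-fold and 96.0% at 2-fold, with 16 false calls. Those changes were balanced between up and down, with the same dispersion for every gene. In the real counts 61.1% of genes were called, and the fit was not tested in such a setting. Chi-square per gene within groups was 1.56 to 2.50, so no library was counted as a repeat of another.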

Additional observations from a re-analysis of the deposited data

How the results depend on the processing

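Under 15 alternatives per gene (3 scalings, DESeq2, 2 filters, each library left out, a replicate block, the GC-length fit and both together) each of the 4 members kept its direction and its call. The log2 fold change ranged from 0.99 to 1.12 for OAS1, 1.52 to 1.59 for OAS2, 0.85 to 0.91 for OAS3 and 1.85 to 1.99 for OASL. HNRNPC ranged from -3.82 to -3.48. The count of called genes was 7228 as reported, 6371 by DESeq2 and 6371 to 7273 over all alternatives. The 6 ratios between members, each with the larger rise written first, kept their direction with a pseudocount of 5 and with each library left out. The column suffixes shared by the groups do not give the replicate numbers of the sample titles. Deviations of same-suffix libraries from their group means correlated at -0.087, 0.040 and -0.053, so the libraries were not treated as paired. With the suffix as a replicate block the log2 fold changes were 1.10, 1.56, 0.90 and 1.98 for OAS1, OAS2, OAS3 and OASL, and 7159 genes were called. Of the 73 tested genes of the pathway lists 62 were called, where 61.1% of all tested genes were, and 58 to 63 over the alternatives. The median of all tested genes was -0.044 with library size alone and -0.051 in the GC-length fit. Depth limits the interferon genes, which had at most 31 counts in any library.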
